A study of Mus musculus with 6 samples.

Results

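The transcripts followed here encode the proteins that bring carnitine into the muscle fibre and use it to pass fatty acids into mitochondria. The set was given as 7 genes, the carriers Slc22a4 and Slc22a5, the carnitine palmitoyltransferases Cpt1a, Cpt1b and Cpt2, the mitochondrial carrier Slc25a20 and carnitine acetyltransferase Crat, and its members were found by gene symbol in the platform annotation. Of these, 6 genes had a named probe, 13 probes in all out of 46611 with a signal (6 of 17711 named genes), and Slc25a20 had none named here and is not analysed. The set was put together with results of the same arrays known, and Slc22a4 was selected on its transgenic versus wild-type difference. The other members were chosen by their known function, with differences of the same comparison in view. The members' differences are therefore descriptions without a test of their own.

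RNA came from the quadriceps femoris, a thigh muscle, and was read on 6 Illumina mouse BeadArrays. Transgenic mice carried a transgene for RORalpha1delDE, a human RORalpha1 that lacks the E region and part of the hinge, under the human skeletal alpha-actin promoter, which is specific to skeletal muscle per the labels (3 arrays). Wild-type mice were the comparison (3 arrays). All were labelled C57BL/6, backcrossed to C57Bl/6J, fed a diet with 4.6% fat under a 12 h light cycle, fasted overnight and killed in the morning. No source used here gives age, sex or the number of transgenic lines. All the mice were fasted, so fed muscle was not measured.

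Fatty acids need carnitine to enter mitochondria. The carrier OCTN2, encoded by Slc22a5, takes carnitine up from blood, and CPT1 on the outer mitochondrial membrane joins it to a long-chain acyl group in the step that malonyl-CoA inhibits. Slc25a20 then exchanges acylcarnitine for carnitine across the inner membrane, CPT2 releases the acyl-CoA, and CRAT converts short acyl groups, mainly acetyl, to acylcarnitines that can leave. In muscle the main CPT1 is the product of Cpt1b, while Cpt1a encodes the liver form. RORalpha is a nuclear receptor that binds DNA as a monomer at the half-site AGGTCA, preferably after a stretch rich in A and T.

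Within each group, differences between arrays 1 and 2 were not shared by bright probes of one gene (r = 0.0316 across 525 genes in transgenic and 0.0341 in wild type, against 0.703 to 0.765 for pairs with replicate 3). They were averaged into 1 sample, which left n = 2 against 2. The arrays lay on 1 chip in order of genotype, so position and genotype cannot be told apart. Between 13979 and 14454 probes were detected on transgenic arrays and between 14271 and 14887 on wild-type arrays. All 6 skeletal muscle markers were detected on every array. Transgenic replicate 3 stood apart in slow-fibre genes: the summed normalised intensity of 5 measured markers was 2463 there and reached 82510 in the transgenic group, against 50060 to 58580 in wild type. A Rora probe differed by 0.20 ± 0.22 (log2, SE), and no source used here says whether it can bind RNA of the human transgene, so it does not check the labels. All levels below are background-corrected, normalised log2 intensities, and differences are transgenic minus wild type. A probe's intensity depends on its sequence, so no level is set against that of another probe.

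Promoters of 5 of the 7 genes were found in RefSeq's table for GRCm38.p6, each covering 250 bases before and 50 after the start. Those of Slc22a4 and Slc22a5 are shown because Slc22a4 had the largest difference of the set and Slc22a5 is its neighbour on chromosome 11, and that of Cpt1a because it alone among the 5 held the half-site. Letters are 5′ to 3′ on the gene's strand, and capitals mark the half-site AGGTCA or its complement, TGACCT, of which only the complement occurs.
Slc22a4 (chr11:54028055-54028354, minus strand): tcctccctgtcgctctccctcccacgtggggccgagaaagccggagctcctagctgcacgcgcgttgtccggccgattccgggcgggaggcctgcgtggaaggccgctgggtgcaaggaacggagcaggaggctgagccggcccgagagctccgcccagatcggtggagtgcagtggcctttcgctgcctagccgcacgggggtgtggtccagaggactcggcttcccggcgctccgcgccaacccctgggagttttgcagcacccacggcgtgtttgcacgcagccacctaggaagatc
Slc22a5 (chr11:53891654-53891953, minus strand): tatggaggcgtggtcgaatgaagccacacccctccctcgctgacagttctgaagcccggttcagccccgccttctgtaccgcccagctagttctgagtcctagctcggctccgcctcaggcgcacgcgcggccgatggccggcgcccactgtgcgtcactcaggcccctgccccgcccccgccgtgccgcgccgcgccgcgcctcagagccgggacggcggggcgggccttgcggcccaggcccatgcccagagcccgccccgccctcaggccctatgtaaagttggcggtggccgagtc
Cpt1a (chr19:3323051-3323350, plus strand): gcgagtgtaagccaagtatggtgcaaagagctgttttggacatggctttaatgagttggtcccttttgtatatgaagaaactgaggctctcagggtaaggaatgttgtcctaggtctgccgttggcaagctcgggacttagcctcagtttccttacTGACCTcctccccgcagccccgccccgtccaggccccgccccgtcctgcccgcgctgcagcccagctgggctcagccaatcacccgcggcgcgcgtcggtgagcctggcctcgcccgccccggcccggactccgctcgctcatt

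The half-site was searched on both strands as an exact match. It was found in 0 of the windows of Slc22a4, Slc22a5, Cpt2 and Slc25a20, and once in that of Cpt1a, starting 94 bases before the start. Among 32851 promoter windows of 300 bases in the table, 16.3% held it. A match describes letters in the window and does not show a bound site.

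Slc22a4 was the member with the largest difference. It encodes OCTN1, a carrier of organic cations and of the antioxidant ergothioneine that moves carnitine only weakly. Its single probe, ILMN_1223035, read 6.92, 7.45 and 7.61 on the transgenic arrays, against 5.93, 5.28 and 5.60 on the wild-type arrays. Every transgenic array was above every wild-type array, by about 1 log2 unit at the nearest pair. The sample means were 7.40 ± 0.30 in transgenic and 5.60 ± 0.00 in wild type (SD, n = 2 each), a difference of 1.80 ± 0.21 (log2, SE) or 3.47-fold. Averaging arrays 1 and 2 hides the spread of the single arrays, which spanned 0.69 in transgenic and 0.66 in wild type. The probe is 1 of 14420 kept probes, those detected on at least 3 of the 6 arrays, and was kept through its transgenic arrays.

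The wild-type level of Slc22a4 lay at the edge of detection: its mean of 5.60 was below the lowest detected level of the wild-type arrays, 5.75 to 5.83, and the fold rests on values near background. In the deposited signals, on a linear scale, the transgenic arrays read 262, 306.4 and 307.4, where the lowest signal called detected on those arrays was 196.7, 193.3 and 183.8. The wild-type arrays read 215.2, 172.1 and 186.1, with detection levels of 203.8, 202.4 and 197. The probe was thus detected on 3 of 3 transgenic and 1 of 3 wild-type arrays. The size of the difference moved with the treatment of background: it was 1.29 with a larger offset, 0.76 without background correction (1.69-fold) and 0.76 with the deposited log2 values. In the deposited log2 values, which are centred on each probe's median, the transgenic arrays read 0.19, 0.46 and 0.55 and the wild-type arrays -0.19, -0.50 and -0.30. The direction was the same on each scale, while the fold ran from 1.69 to 3.47.

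**Figure D1:**
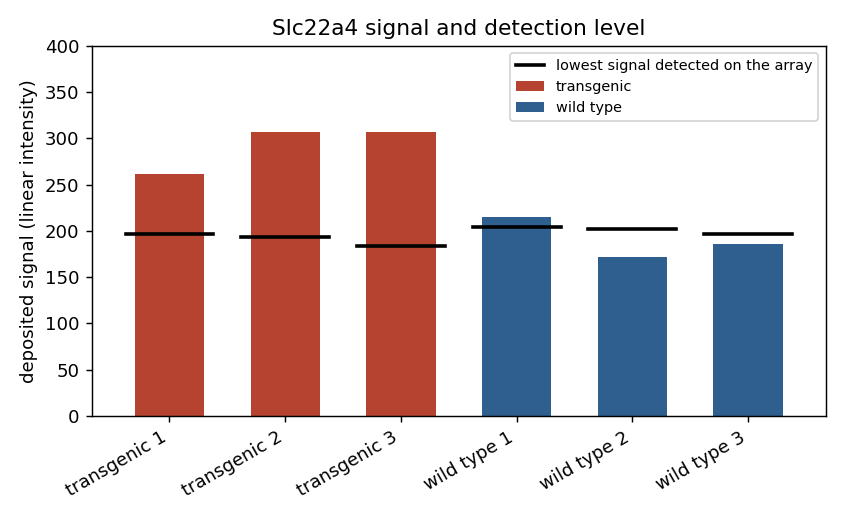
Deposited signal of the Slc22a4 probe (linear intensity, vertical axis, starting at 0) on each array, transgenic arrays on the left and wild type on the right, with a black line at the lowest signal called detected on that array. The transgenic arrays read 262 to 307.4, all above their line, and the wild-type arrays 172.1 to 215.2, with only array 1 above its line.

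Leaving out replicate 3 of a group, or its arrays 1 and 2, leaves that group 1 sample. Without transgenic replicate 3 the Slc22a4 difference was 1.58, and without wild-type replicate 3 it was 1.79. It was 1.80 without wild-type arrays 1 and 2 and 2.01 without transgenic arrays 1 and 2. Macrophage markers were set beside it: the differences of all 5 measured of 7 were above 0, with a median of 0.69. Of the 5, 0 passed limma's threshold of adjusted p under 0.05. Where 7.12% of 8397 genes had an unadjusted limma p under 0.05 in either direction, 2 of these markers did. Their summed normalised intensity was 624 to 1396 on transgenic arrays and 584.6 to 825.6 on wild-type arrays. Without transgenic replicate 3 the median of the macrophage markers was 0.24. Their part in the Slc22a4 result was not tested. In RNA of whole muscle, a change in the number of cells of a type and in the RNA per cell cannot be told apart. Erythroid markers had a median difference of 0.11 (-0.032 without transgenic replicate 3) over 3 measured of 5, with sums of 15620 to 17320 on transgenic and 13120 to 19500 on wild-type arrays.

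Slc22a5, the gene for the high-affinity carnitine carrier OCTN2, was detected on all 6 arrays by both of its probes. Probe ILMN_1248798 read 7.49, 7.66 and 7.20 on transgenic arrays, against 7.80, 7.12 and 7.39 on wild-type arrays. Probe ILMN_2651273 read 6.91, 7.07 and 7.65, against 7.33, 6.86 and 7.08. The groups overlapped at both probes, and the probes disagreed about transgenic replicate 3, which was the lowest transgenic array at one and the highest at the other. Their differences were -0.04 ± 0.20 (95% interval of the fit -0.53 to 0.46) and 0.23 ± 0.25 (-0.39 to 0.85). Changes of up to about these bounds at either probe could not be told from the spread between samples.

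The genes around the carriers on chromosome 11 were looked at because Slc22a4 and Slc22a5 are neighbours there. Slc22a21, which lies between them in the RefSeq gene order and encodes the mouse carrier OCTN3, was detected on none of the 6 arrays. Of 14 annotated neighbours, 3 had a kept probe. Irf1, an interferon-induced transcription factor gene, differed by -0.04 ± 0.18, Pdlim4, which encodes a PDZ and LIM domain protein, by 0.02 ± 0.19, and P4ha2, a collagen prolyl hydroxylase gene, by 0.20 ± 0.21. None of the 3 passed the limma threshold of adjusted p under 0.05 over all kept probes, with 0 at an unadjusted p under 0.05.

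Cpt1b, the muscle form of CPT1, was read by a pair of probes that gave nearly the same difference. Probe ILMN_1227666 read 13.54, 13.55 and 13.27 on transgenic arrays, against 13.59, 13.49 and 13.41 on wild-type arrays, a difference of -0.07 ± 0.19 (95% interval -0.53 to 0.40). Probe ILMN_2709240 read 11.94, 11.75 and 11.37, against 11.72, 11.54 and 11.74, a difference of -0.08 ± 0.22 (-0.61 to 0.45). Transgenic replicate 3 was the lowest of all 6 arrays at both probes, and the groups overlapped. It lay below the transgenic sample of arrays 1 and 2 by 0.27 at the first probe and 0.47 at the other.

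Brown adipocytes also express Cpt1b, and their markers differed between the groups. Ucp1, whose product uncouples brown fat mitochondria, was detected on 0 of 3 transgenic arrays and stood at least 97.7-fold lower in them (limma adjusted p = 0.00103). This bound sets the wild-type mean against the lowest detected level of each transgenic array. The Ucp1 probe was kept through its wild-type arrays, so its passing is no test. Cidea, a lipid droplet protein of these cells, stood at 7.33 and 7.27 in the transgenic samples, against 10.85 and 11.83 in wild type. Of the 5 markers in that list, Elovl3 and Ppara were not kept, and Cox8b, also a muscle gene, differed by 0.10. The summed level of the 3 measured markers, most of it Cox8b, was 41870 to 51520 on transgenic and 48480 to 52480 on wild-type arrays. Of 8 general adipocyte markers 3 were measured, with a median difference of -1.13 and sums of 935.4 to 3327 on transgenic and 3348 to 5231 on wild-type arrays. Without transgenic replicate 3 that median was -2.04: Adipoq, a fat cell hormone gene, read 9.25, 9.21 and 11.05 on the transgenic arrays, against 10.82, 10.67 and 11.79 on the wild-type arrays. The part of these cells in the Cpt1b values was not tested.

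Cpt1a, the liver form, was close to the detection limit. Probe ILMN_1213487 read 6.08, 5.83 and 5.98 on transgenic arrays, all detected, against 5.59, 5.64 and 6.47 on wild-type arrays, of which 1 was detected. Wild-type replicate 3 was the highest of the 6 arrays, and the transgenic arrays lay between it and the others. The difference was -0.07 ± 0.30 (95% interval -0.80 to 0.66), and leaving out wild-type replicate 3 turned it to 0.35, while leaving out wild-type arrays 1 and 2 gave -0.50. Its other probe, ILMN_2591776, was detected on 0 of 6 arrays and gives no fold.

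Cpt2, the transferase of the inner membrane, had the smallest spread of the set. Probe ILMN_2775123 read 13.01, 13.03 and 12.93 on transgenic arrays, against 13.10, 13.11 and 12.97 on wild-type arrays. Probe ILMN_2772599 read 11.58, 11.83 and 11.65, against 11.75, 11.76 and 11.72. The 6 arrays spanned 0.17 and 0.25 at these probes, where the median span was 0.60 over all kept probes and 0.55 over those detected on all 6 arrays. The differences were -0.06 ± 0.18 (95% interval -0.48 to 0.37) and -0.07 ± 0.17 (-0.48 to 0.35), with overlap of the groups at both.

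Crat, the gene for carnitine acetyltransferase, was read by 4 probes, all detected on all 6 arrays, and they did not give one answer. Its strongest-reading probe, ILMN_2679456, read 12.17, 12.44 and 12.09 on transgenic arrays, against 11.93, 12.29 and 12.17 on wild-type arrays, a difference of 0.05 ± 0.18. Probe ILMN_1220786 read 7.81, 7.64 and 7.71, against 7.39, 7.79 and 7.92, a difference of -0.04 ± 0.19. At both of these the groups overlapped.

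The other Crat probes had differences of unlike sign, of which the negative one changed sign without transgenic replicate 3. Probe ILMN_2771339 read 8.22, 7.66 and 7.96 on transgenic arrays, against 7.58, 7.25 and 7.39 on wild-type arrays, so that every transgenic array was above every wild-type array. Its difference was 0.55 ± 0.17, or 1.46-fold, and 0.31 with the deposited log2 values. Probe ILMN_2492146 read 8.16, 7.46 and 6.99, against 7.57, 7.40 and 7.90, a difference of -0.30 ± 0.32 with transgenic replicate 3 the lowest and transgenic array 1 the highest of all. Without transgenic replicate 3 it was 0.12, without wild-type replicate 3 -0.09, and with 6 separate arrays -0.09. Over all alternatives it ran from -0.71 to 0.12. The 4 probes thus ran from -0.30 to 0.55, a span of 0.84 that was 0.56 without transgenic replicate 3. The pair for Cpt1b differed by 0.014 and the pair for Cpt2 by 0.0089, or 0.084 and 0.025 without that array. No source used here says which Crat transcripts or exons each probe reads.

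**Figure D2:**
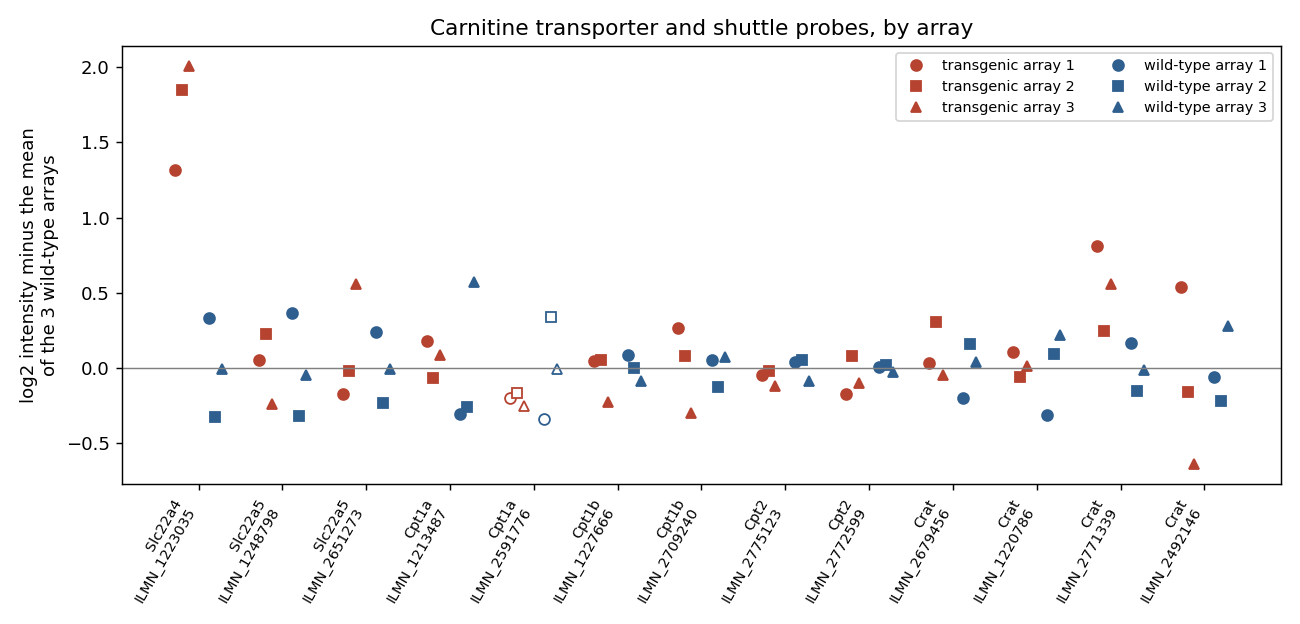
Normalised log2 intensity of each of the 13 probes minus the mean of its 3 wild-type arrays (vertical axis), transgenic arrays left (red) and wild-type arrays right (blue) at each probe, with 1 marker shape per replicate number and open markers for the probe detected on 0 of 6 arrays. Groups separate at Slc22a4 and at Crat ILMN_2771339 and overlap at the other detected probes.

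Over the whole set, 0 of 12 kept probes passed limma's threshold of adjusted p under 0.05, with 2, those of Slc22a4 and Crat ILMN_2771339, at an unadjusted p under 0.05. Of all kept probes, 0.00693% passed the threshold and 7.64% had an unadjusted p under 0.05. In the fit to 6 separate arrays, 1 of 12, Slc22a4, passed, higher in transgenic muscle, against 0.374% of all kept probes in either direction and 0.139% higher. That fit counts arrays 1 and 2 of a group singly. Slc22a4 was selected on this difference and kept through its transgenic arrays, so its passing is no test. With 2 samples against 2, 0% of all kept probes passed as higher. The transgenic arrays lay above the wild-type arrays without overlap at 2 of 12 probes, where 12.1% of all kept probes did so, and below them at 0, where 9.76% did. The median difference of the 12 was -0.047, with 8 below 0, beside a median of 0.018 over all kept probes, of which 47.2% were below 0. Without transgenic replicate 3 the members' median was 0.094. Since the comparison was known when the set was drawn up, nothing is read from these counts.

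**Figure D3:**
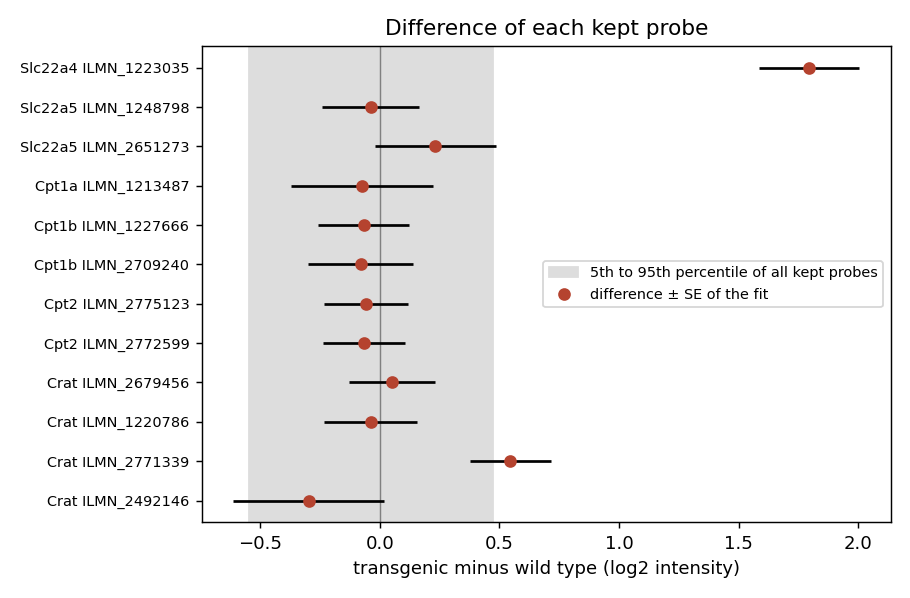
Transgenic minus wild-type difference (log2 intensity, horizontal axis) of the 12 kept probes, points with bars of ± 1 SE of the fit to 2 samples against 2, over a grey band from the 5th to the 95th percentile of all 14420 kept probes (-0.55 to 0.48). Slc22a4 at 1.80 and Crat ILMN_2771339 at 0.55 lie above the band and the other 10 within it.

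The patterns nearest to that of Slc22a4 were sought over the 4 samples, as the smallest root mean square difference after centring each probe on its own mean, among 8397 named genes with a kept probe. The nearest 5 were Nes, an intermediate filament gene, at 0.15, Katnal2, a katanin-like gene, at 0.20, Gdf11, a gene for a secreted growth factor, at 0.22, the DNA translocase gene Zranb3 at 0.23 and Ush1c, a scaffold protein gene, at 0.24. They differed between the groups by 1.34 to 1.74, a size that the choice by nearness to Slc22a4 built in. Nes stood 1.64 higher in the transgenic samples. Gdf11 was detected on 0 of 3 wild-type arrays and was kept through its transgenic arrays. The member of another gene with the widest spread was Crat ILMN_2492146, whose nearest genes were Fam240a, Lrrn1, Klhl34, 5730409E04Rik and Thoc6, at 0.04 to 0.06. With 4 samples such nearness describes these arrays and nothing more.

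Around the shuttle, 47 of 81 pathway genes outside the set had a kept probe. This count includes the 14 annotated neighbours on chromosome 11, of which 3 were kept, though they are not genes of the pathway by function. Of the 47, 0 passed limma's threshold in either direction, with 7, all lower, at an unadjusted p under 0.05 (14.9%). Over all 8397 genes by the same choice of 1 probe per gene, 7.12% had such a p in either direction and 3.27% as lower. The median difference of the pathway genes was -0.14, or -0.094 without transgenic replicate 3, beside 0.04 over all genes. Genes that make carnitine, Tmlhe, Bbox1 and Aldh9a1, were all below the detection filter, as was Slc22a2, the only one of 4 related organic cation carriers with a named probe. Of 6 other carnitine carriers and transferases 3 were measured. Slc25a29, a mitochondrial carrier of basic amino acids, differed by -0.41 ± 0.22 and Slc16a9, linked to carnitine efflux in humans, by -0.54 ± 0.38. Slc22a16 passed detection on 1 of 3 transgenic and 3 of 3 wild-type arrays. Its transgenic mean of 5.68 was below the lowest detected level of those arrays, 5.80 to 5.87, so no difference is given. Crot, the peroxisomal carnitine octanoyltransferase, and Cpt1c, the form of brain, were detected on none of the arrays.

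Malonyl-CoA sets the activity of CPT1, and the genes that make and remove it were measured. Acaca, the acetyl-CoA carboxylase of fatty acid synthesis, stood at 9.36 and 9.31 in the transgenic samples, against 10.39 and 10.44 in wild type. Its difference was -1.08 ± 0.17, below the wild-type samples in both, with a limma adjusted p of 0.389 (0.0394 in the fit to 6 separate arrays). A dimmer Acaca probe differed by 0.24. Acacb, the carboxylase on the outer mitochondrial membrane that supplies the malonyl-CoA acting on CPT1 in muscle, differed by -0.19 ± 0.20, and Mlycd, the decarboxylase that removes malonyl-CoA, by -0.26 ± 0.19. Prkab2, a subunit of the kinase AMPK that inhibits both carboxylases, differed by 0.31 ± 0.18. The 6 measured genes of this group had a median of -0.14, with 4 below 0.

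Of the acyl-CoA synthetases that supply CPT1, Acsl5 differed by -0.72 ± 0.21 (limma adjusted p = 0.615), Acsl4 by -0.30 ± 0.19 and Acsl6 by 0.23 ± 0.22. Among genes of fatty acid entry into the cell, the receptor gene Cd36 stood at 5.88 and 5.36 in the transgenic samples, against 6.20 and 6.11 in wild type. It passed detection on 1 of 3 transgenic and 2 of 3 wild-type arrays. Its transgenic mean of 5.62 was below the lowest detected level of those arrays, so no difference is given. The binding protein gene Fabp3 differed by 0.29 ± 0.19 and the transporter gene Slc27a1 by 0.16 ± 0.21. The enzymes downstream of CPT2, 13 measured of 15 genes of mitochondrial beta-oxidation, had a median of -0.13 with 9 below 0, and the median was -0.035 without transgenic replicate 3. Those with the smallest p were Decr1 at -0.31 ± 0.18, Echs1 at -0.28 ± 0.18 and Hadha at -0.46 ± 0.29. Etfdh, the gene for the dehydrogenase that passes electrons from beta-oxidation to ubiquinone, differed by -0.14 ± 0.20 at its brightest probe, while its dimmer probes gave other values. Probe ILMN_1253451 of Etfdh was detected on 0 of 3 transgenic and 3 of 3 wild-type arrays. It stood at least 1.93-fold lower in transgenic samples (limma adjusted p = 0.399). It was kept through its wild-type arrays and named after its values were seen. Probe ILMN_1249957 differed by -0.29 ± 0.17. None of these genes passed the threshold.

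PPAR receptors act on Cpt1b and other genes of the shuttle. Ppard, the main PPAR of muscle, stood at 10.35 and 9.76 in the transgenic samples, against 10.91 and 10.69 in wild type, a difference of -0.74 ± 0.25 (limma adjusted p = 0.638). Pparg, the PPAR of fat cells, stood at 7.20 and 7.16, against 8.11 and 8.63, a difference of -1.19 ± 0.23 (limma adjusted p = 0.445), in samples whose adipocyte markers had a median of -1.13, or -2.04 without transgenic replicate 3. That array stood above the other transgenic arrays in Adipoq. Both transgenic samples were alike in Pparg, and also in the brown adipocyte marker Cidea (7.33 and 7.27). The part of fat cells in the Pparg values was not tested. Ppara was detected on 0 of 3 transgenic and 1 of 3 wild-type arrays and was not kept. The estrogen-related receptor gene Esrrg differed by -0.64 ± 0.41.

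Among 6 measured PPAR-responsive genes 5 were below 0, with a median of -0.54 and 0 past the threshold. Ehhadh, a peroxisomal enzyme of fatty acid oxidation, stood at 7.43 and 7.65 in the transgenic samples, against 8.85 and 8.48 in wild type, a difference of -1.13 ± 0.21 (limma adjusted p = 0.44, and 0.0402 in the fit to 6 separate arrays). Plin2, a lipid droplet protein, differed by -0.57 ± 0.17 and Angptl4, an inhibitor of lipoprotein lipase, by -0.84 ± 0.29. Cpt1b, at -0.07 and -0.08, and Cpt2, at -0.06 and -0.07, lay nearer to 0 than Ehhadh, Angptl4 and Plin2 in the same samples. Those 3 were named for the smallest p of their list, so this order was built in. Of the same list, Pdk4, at 0.03, lay nearer to 0 than Cpt1b and Cpt2. Acot2 differed by -0.52 and Ucp3 by -0.44, or -0.16 at its dimmer probe. The difference between these genes was not tested.

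**Figure D4:**
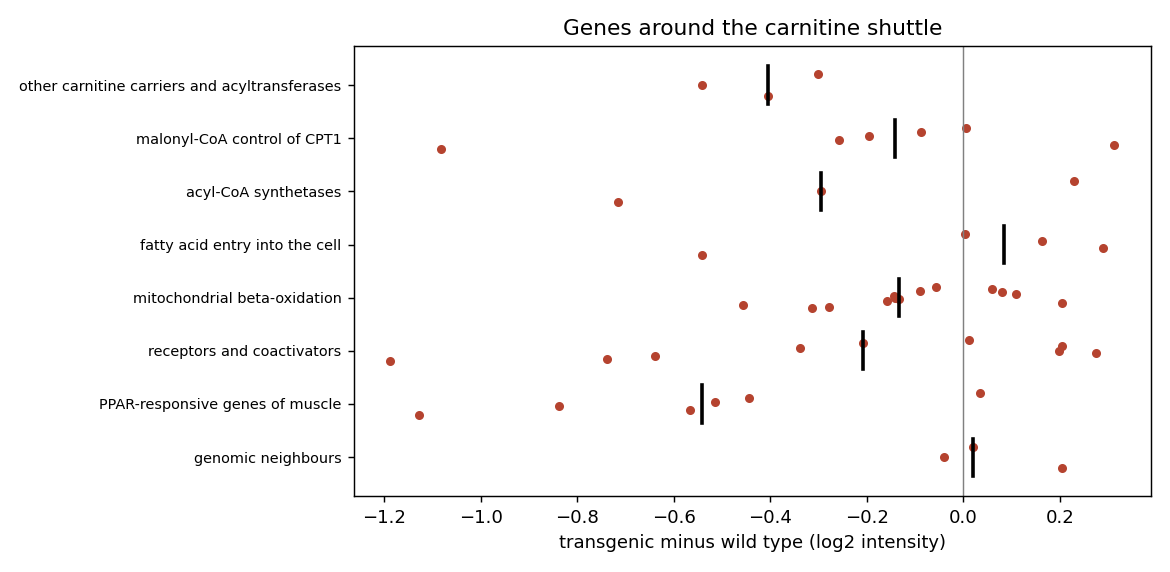
Transgenic minus wild-type difference (log2 intensity, horizontal axis) of each measured gene in the lists around the shuttle, 1 point per gene by its brightest kept probe, with a black bar at each list's median. The PPAR-responsive genes have the lowest median (-0.54) and the genes of fatty acid entry the highest (0.08, or 0.18 without transgenic replicate 3).

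**Figure D5:**
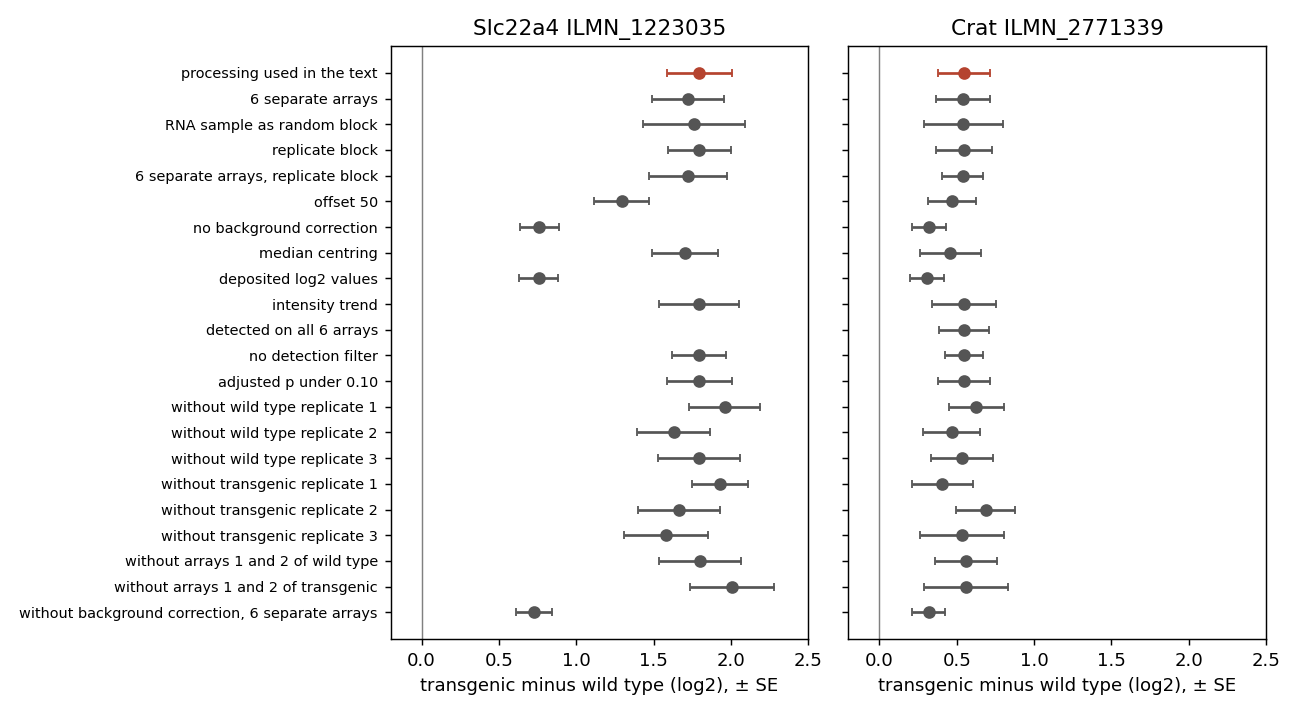
Transgenic minus wild-type difference ± SE (log2 scale, horizontal axis) of Slc22a4 and of Crat ILMN_2771339 under the processing used in the text (red) and each alternative (grey). Both stay above 0 throughout, Slc22a4 between 0.72 and 2.01 and Crat ILMN_2771339 between 0.31 and 0.69. Some alternatives change only the SE or the calls and leave the difference as it was. Slc22a4 was selected on this difference.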

How the data were processed

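The deposited signal table holds bead-averaged intensity, linear in scale, from BeadStudio 2.3.41 per the submitters' processing notes. A detection value, a fraction from 0 to 1 headed as a p-value per the file headers, accompanies each deposited signal. It rises with signal and was read as 1 minus the p-value. The authors' deposited log2 values were found to be log2 signals less an array constant and less the probe's median over 6 arrays. No source used here gives the background setting of the export.

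Deposited signal rows were displaced against the probe identifiers by 0 to 21 rows. Between-array differences, matched to the deposited log2 values within 0.002, returned 46611 of 46632 probes to their rows (largest remaining difference 2.1e-06). Rank correlation of signal with detection value, which took no part in the matching, was 0.052 to 0.062 as deposited and at least 0.997 afterwards.

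Intensities were corrected by normexp with inferred negative controls (offset 16), quantile normalised and log2 transformed (neqc, limma 3.58.1, R 4.3.3; Python 3.11.15). A probe was kept when its detection p was under 0.05 on 3 or more of the 6 arrays (14420). Groups were compared with limma (lmFit, eBayes, two-sided, Benjamini-Hochberg over kept probes, threshold 0.05). The code was also run on simulated independent values. These held no effect of chip position or of an outlying array, so that run checks only the code. The exact permutation test of 2 samples against 2 cannot go below 0.333, or 0.1 with 3 arrays against 3, so none was run. Nothing in the labels ties arrays to separate mice, so the p-values reflect only the spread of these samples, part of which may be technical. Arrays of a group with r under 0.1 between probes of a gene were averaged and counted as 1 sample. The number of arrays limits precision. Alternatives are given at the close.

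Every member probe was described. Of each pathway list up to 3 genes with the smallest p were named, with Acaca, Acacb, Mlycd, Ppara, Ppard, Slc22a21 and Crot in any case, each by its brightest kept probe, and the 5 genes nearest in pattern. Members, lists and this rule were chosen with earlier results of these data known. Other genes named, such as Cpt1c, Etfdh and Ucp1, were chosen after their values were seen or as markers. Marker lists not given in the report had median differences of 0.01 (endothelium), 0.19 (fibroblast), 0.08 (smooth muscle), -0.08 (Schwann cell), 0.02 (fast fibre), 0.04 (skeletal muscle), 0.18 (liver and kidney, 1 measured gene) and -2.32 (slow fibre). Without transgenic replicate 3 they were 0.70 for slow fibre, 0.27 for Schwann cell, 0.17 for smooth muscle, 0.08 for skeletal muscle and 0.04 for endothelium.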

Additional observations from a re-analysis of the deposited data

How the results depend on the processing

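With the 6 arrays taken as separate samples, 1 of 12 member probes passed (Slc22a4, selected on this difference), against 0 in the processing used here. Of the 47 pathway genes, chromosome 11 neighbours included, 2 passed (Acaca and Ehhadh, both lower), against 0. Of all probes 54 passed, against 1. When background correction was also left out, a setting chosen after seeing the data, 1 member probe, 5 pathway genes (Acaca, Angptl4, Ehhadh, Plin2 and Pparg, all lower) and 184 probes passed. No other alternative called a member or a pathway gene. Counts over all probes were 13 under a random block for the RNA sample, 10 with an intensity trend, 9 with offset 50, 8 without background correction, 7 in the authors' log2 table, 3 with median centring, 3 at adjusted p under 0.10, 0 when detection on all 6 arrays was required (Ucp1 drops out), 1 to 8 when 1 array was left out (8 without transgenic replicate 3) and 18 without transgenic arrays 1 and 2, a setting also chosen later. The cause of these changes was not tested. The members' median ran from -0.058 to 0.094 when 1 array was left out, the highest without transgenic replicate 3.

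Same-numbered arrays did not deviate together across groups (r = 0.000, 0.023 and 0.062), and arrays of unlike number gave -0.062 to 0.059. These values cannot show whether the mice were paired. With the replicate block 0 members, 0 pathway genes and 1 probe passed, and with 6 separate arrays and the block 0, 0 and 15. Slc22a4 was above 0 under all 20 alternatives that gave it a value (the filter for detection on all 6 arrays removes it), and Crat ILMN_2771339 under all 21. Cpt2 ILMN_2772599 was below 0 under all 21, while each of the other 9 kept probes changed sign under at least 1 alternative. Some alternatives, such as the intensity trend or another threshold, leave the difference of a probe as it was. The counts are therefore not of separate checks, and Slc22a4 was selected on this difference. Signal near background limits Slc22a4 and Cpt1a most.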
